A study of Mus musculus with 6 samples.

Results

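The genes of fatty acid and triglyceride synthesis were described in the triceps brachii of SAMP-10 mice, a strain that ages early. The 10 listed genes were the lipogenic enzymes *Acly*, *Acaca*, *Acacb*, *Fasn*, *Elovl6*, *Scd1*, *Dgat1* and *Dgat2* and the transcription factors *Srebf1* and *Mlxipl*. They were taken by gene symbol, and 9 of the 10 were measured, out of 19505 genes with a symbol. No probe set carried the symbol *Srebf1* in the annotation used here, so it has no signal values, and only its promoter windows were counted. The control group (mice 1, 6 and 8) received no stimulation, and the u40Hz-stimulation group (mice 4, 10 and 11) received unmodulated 40 Hz vibration and inaudible low-frequency sound for 24 h a day over 5 weeks. All 6 were male SAMP-10 mice on a normal diet, and the tests after the stimulation were made at 31 weeks of age. Mice are numbered as in the labels. The strain is a model of accelerated aging with no normally aging strain beside it, and each array held the muscle RNA of 1 mouse, so the values come from 6 separate animals.

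Fatty acid synthesis starts in the cytosol, where citrate exported from the mitochondria is split into acetyl-CoA, which is carboxylated to malonyl-CoA and built into palmitate. Palmitate is then elongated, desaturated and joined to glycerol to make triglyceride. Liver and adipose tissue, brown fat included, are known for high lipogenic activity, whereas skeletal muscle mostly takes up fatty acids and burns them. In muscle, malonyl-CoA is better known as a brake on the entry of fatty acids into the mitochondria. The transcription factors SREBP-1c, which responds to insulin, and ChREBP, which responds to glucose, are known to switch on the enzymes of this pathway.

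The values were log2 signals of 22206 probe sets, between 1.43 and 19.93 (the upper limit of the scale), with array medians from 5.53 to 5.61. Levels of different genes cannot be set against each other, because each probe set has its own response. A log2 fold change is the mean of the u40Hz-stimulation group minus that of the control group. In limma an adjusted p under 0.05 was reached by no probe set (0.0% of all, smallest adjusted p = 0.606), and 1556 had an unadjusted p under 0.05 (7.01%). The muscle label held on every array, since *Acta1*, *Myh4* and *Atp2a1* stood at the upper limit in all 6 mice, and the mean of 10 muscle fibre markers lay between 18.66 and 19.36. U40Hz mouse 4 stood apart. The mean of 9 white adipocyte markers was 11.26 in this mouse and between 6.23 and 7.86 in the other 5. The mean of 6 brown adipocyte markers was 10.93, against 7.08 to 7.87. Of these 6, only the brown fat uncoupling protein *Ucp1* (15.62 against 2.61 to 4.16) and *Cidea* were more than 1 above the median of the others. In whole muscle, more cells of a type and more RNA per cell cannot be told apart. The comparisons are therefore given with and without this mouse.

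In u40Hz mouse 4, 6 of the 9 synthesis genes stood far above every other mouse. *Elovl6*, *Fasn*, *Acly*, *Acaca*, *Scd1* and *Dgat2* were 10.22, 8.94, 7.91, 7.17, 6.34 and 4.78 above the median of the other 5 mice on the log2 scale. The other 3 genes, *Dgat1*, *Acacb* and *Mlxipl*, were 1.27, 0.90 and 0.35 above it. These distances come from 1 mouse and have no replicate. The larger distances belonged to 6 enzymes on the way from citrate to triglyceride, and the smaller ones to the mitochondrial carboxylase isoform, the other triglyceride acyltransferase and the transcription factor. In u40Hz mice 10 and 11, *Acaca*, *Acacb*, *Fasn* and *Mlxipl* were above every control mouse, as 11.4% of all probe sets were, and *Dgat1* was below every control mouse, as 10.8% were.

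**Figure D1:**
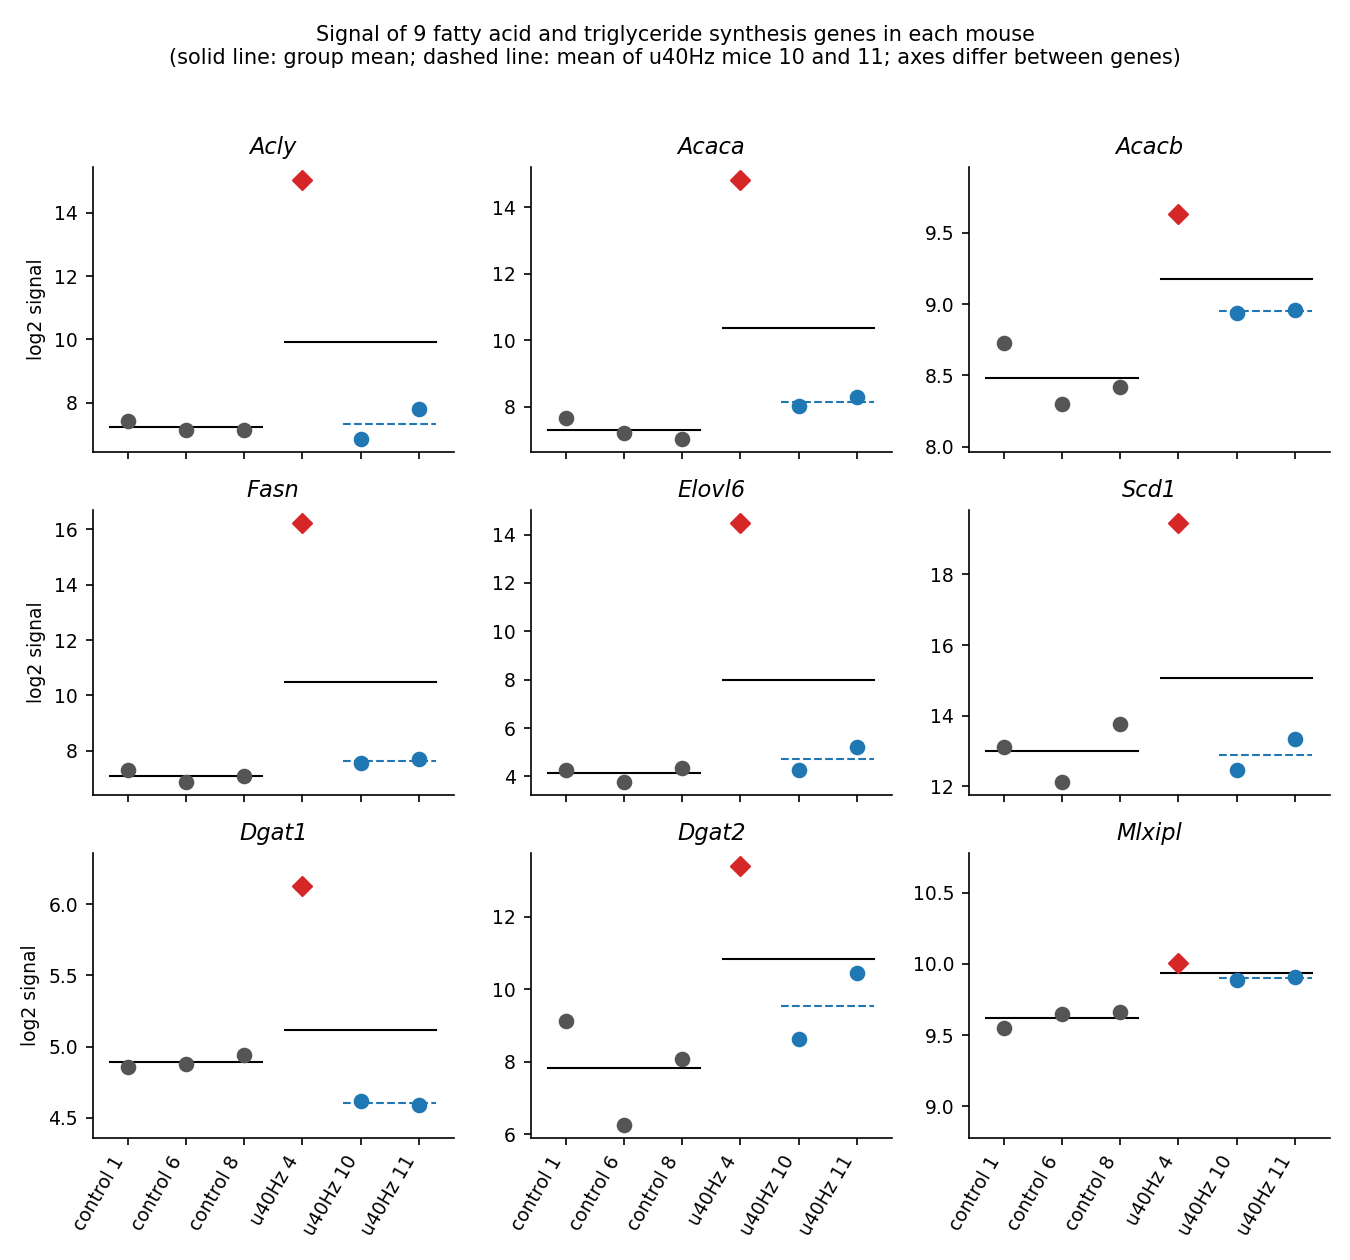
Log2 signal (y axis, its range differs between genes) of each of the 9 measured genes in the 6 mice (x axis). Grey points are control mice, the red diamond is u40Hz mouse 4 and blue points are u40Hz mice 10 and 11; solid lines are group means and the dashed line is the mean of mice 10 and 11. *Elovl6* was at 14.49 in mouse 4 and at 3.78 to 5.22 in the others, whereas *Mlxipl* lay between 9.55 and 10.01 in all 6.

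The promoters of 4 genes are shown, *Fasn* and *Acly* as genes with a large distance in u40Hz mouse 4, and *Acacb* and *Mlxipl* as genes with a small one. Each run is the 250 bases before the annotated start, 5′ to 3′ along the gene, from RefSeq on the mouse build GRCm38.p6, and *Mlxipl* is shown at the first of its annotated starts along the gene. Capitals mark matches on either strand to CCAAT (bound by NF-Y), GGGCGG (bound by Sp1), CACGTG (the E-box of ChREBP and other factors) and TCACNCCAC (a form of the sterol response element of SREBP).
Fasn (chr11:120824548-120824797, minus strand): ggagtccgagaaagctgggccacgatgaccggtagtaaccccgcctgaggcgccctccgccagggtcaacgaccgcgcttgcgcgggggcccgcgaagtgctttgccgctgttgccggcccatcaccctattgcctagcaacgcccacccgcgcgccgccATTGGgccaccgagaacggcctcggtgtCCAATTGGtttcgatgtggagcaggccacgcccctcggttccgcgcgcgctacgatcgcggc
Acly (chr11:100528001-100528250, minus strand): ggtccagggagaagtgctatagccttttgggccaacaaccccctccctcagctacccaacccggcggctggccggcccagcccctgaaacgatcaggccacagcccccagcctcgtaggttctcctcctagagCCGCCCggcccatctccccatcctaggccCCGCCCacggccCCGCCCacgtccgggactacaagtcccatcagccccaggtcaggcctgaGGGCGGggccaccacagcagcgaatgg
Acacb (chr5:114165268-114165517, plus strand): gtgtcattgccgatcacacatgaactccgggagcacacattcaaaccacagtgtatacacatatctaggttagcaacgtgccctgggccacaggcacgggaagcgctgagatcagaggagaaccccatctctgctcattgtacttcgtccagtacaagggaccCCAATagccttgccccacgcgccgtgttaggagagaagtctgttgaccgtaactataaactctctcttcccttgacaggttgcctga
Mlxipl (chr5:135089640-135089889, plus strand): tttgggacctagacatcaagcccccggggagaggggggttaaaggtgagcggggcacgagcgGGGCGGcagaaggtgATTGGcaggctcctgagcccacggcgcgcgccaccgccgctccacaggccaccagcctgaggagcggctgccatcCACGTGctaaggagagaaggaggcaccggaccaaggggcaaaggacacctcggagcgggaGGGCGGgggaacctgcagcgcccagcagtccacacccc
The *Fasn* window held CCAAT at 3 places, with first bases 90, 62 and 59 before the start, the last 2 overlapping on opposite strands. The *Acly* window held GGGCGG at 4 places. The *Acacb* window held a CCAAT with its first base 87 before the start. The *Mlxipl* window held GGGCGG at 2 places, a CCAAT, and the E-box with its first base 98 before the start. None of these 4 windows held TCACNCCAC, which was found in the window of a second *Mlxipl* start. The table held 10 windows for 7 of the 10 listed genes, and those of *Elovl6* and *Acaca* held none of the 4 motifs. Among 32851 promoter windows of the same length, CCAAT was in 33.8%, GGGCGG in 32.7%, CACGTG in 6.02% and TCACNCCAC in 1.05%. A match is a string of letters and not a measured binding site. A window without a motif covers only the bases before that annotated start, and does not show that the gene lacks the motif elsewhere.

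*Acly* encodes ATP citrate lyase, which makes cytosolic acetyl-CoA from citrate. The log2 signal of control mice 1, 6 and 8 was 7.42, 7.14 and 7.14, and that of the stimulated mice 4, 10 and 11 was 15.05, 6.86 and 7.80. The groups overlapped, since u40Hz mouse 10 was the lowest of all 6. The means were 9.90 ± 4.48 (SD, n = 3) with u40Hz stimulation and 7.23 ± 0.16 (SD, n = 3) in the control group. Stimulated minus control, the log2 fold change was 2.67 with a 95% confidence interval from -1.41 to 6.75 (limma, unadjusted p = 0.172 and adjusted p = 0.765). With u40Hz mouse 4 left out it was 0.10, with an interval from -0.60 to 0.79.

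*Acaca* encodes acetyl-CoA carboxylase 1, the cytosolic enzyme whose malonyl-CoA feeds fatty acid synthesis. The controls (mice 1, 6 and 8) had log2 signals of 7.66, 7.21 and 7.04, and the stimulated mice (4, 10 and 11) had 14.83, 8.01 and 8.30. The groups did not overlap (p = 0.1 in a two-sided exact permutation test, which cannot go lower with 3 mice against 3). On the log2 scale the group means differed by 3.08, with a 95% confidence interval from -0.45 to 6.60 (limma, unadjusted p = 0.0796 and adjusted p = 0.717). In the other 5 mice it was 0.85, a 1.80-fold difference, with an interval from 0.26 to 1.44 (limma, unadjusted p = 0.0103 and adjusted p = 0.762). This was the smallest unadjusted p among the 9 genes in that fit, and it did not pass the adjustment over all probe sets.

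*Acacb* encodes acetyl-CoA carboxylase 2, the isoform at the mitochondrial outer membrane whose malonyl-CoA restrains carnitine palmitoyltransferase 1. The log2 signal of control mice 1, 6 and 8 was 8.73, 8.30 and 8.42, and that of the stimulated mice 4, 10 and 11 was 9.63, 8.94 and 8.96. Every stimulated mouse lay above every control mouse (exact permutation p = 0.1). The means were 9.18 ± 0.39 (SD, n = 3) and 8.48 ± 0.22 (SD, n = 3). The difference between the group means was 0.69, a 1.62-fold difference, with a standard error of 0.25 (limma, unadjusted p = 0.0217 and adjusted p = 0.695). It was 0.47 without u40Hz mouse 4, with a 95% confidence interval from -0.04 to 0.98. U40Hz mouse 4 was thus 0.90 above the median of the others for this isoform and 7.17 above it for *Acaca*.

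*Fasn* encodes fatty acid synthase, the enzyme that builds palmitate from malonyl-CoA. The controls (mice 1, 6 and 8) had log2 signals of 7.30, 6.88 and 7.10, and the stimulated mice (4, 10 and 11) had 16.24, 7.57 and 7.69. The groups did not overlap (exact permutation p = 0.1), and the 5 mice other than u40Hz mouse 4 lay within 0.81 of each other. The groups differed by a log2 fold change of 3.41 with a standard error of 1.98 (limma, unadjusted p = 0.122 and adjusted p = 0.744). Among the other 5 mice it was 0.54, a 1.45-fold difference, with a 95% confidence interval from 0.03 to 1.05 (limma, unadjusted p = 0.0412 and adjusted p = 0.762).

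*Elovl6* encodes the elongase that turns palmitate into stearate. The log2 signal of control mice 1, 6 and 8 was 4.27, 3.78 and 4.37, and that of the stimulated mice 4, 10 and 11 was 14.49, 4.25 and 5.22. In 5 mice the signal was below the median of the array, and in u40Hz mouse 4 it was the second farthest of all 22206 probe sets above the median of the other mice, after *Ucp1*. The groups overlapped, since u40Hz mouse 10 was below control mice 1 and 8. As a log2 fold change, the difference was 3.85 (SE 2.25, limma unadjusted p = 0.124 and adjusted p = 0.746), and 0.60 without u40Hz mouse 4 (95% confidence interval from -0.17 to 1.36).

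*Scd1* encodes the desaturase that makes oleate from stearate. The controls (mice 1, 6 and 8) had log2 signals of 13.12, 12.13 and 13.77, and the stimulated mice (4, 10 and 11) had 19.46, 12.45 and 13.33. U40Hz mouse 4 was only 0.47 below the upper limit of the scale, so its distance of 6.34 from the median of the others was near the most that the scale can show. The other stimulated mice lay inside the control range. The estimated log2 fold change was 2.07 (SE 1.56, limma unadjusted p = 0.218 and adjusted p = 0.790). With u40Hz mouse 4 left out it turned to -0.12, with a 95% confidence interval from -1.21 to 0.98. *Scd1* belongs to a family of related copies, of which *Scd3* and *Scd4* were also measured, with log2 signals in u40Hz mouse 4 within 0.22 of the median of the other mice. *Scd3* was at 4.66 to 5.54 and *Scd4* at 2.76 to 3.06 over the 6 mice, below or about the array medians. Whether these signals were above background was not tested.

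*Dgat2* encodes the acyltransferase that joins a newly made fatty acid to diacylglycerol and is tied to lipogenesis. The log2 signal of control mice 1, 6 and 8 was 9.13, 6.26 and 8.07, and that of the stimulated mice 4, 10 and 11 was 13.41, 8.63 and 10.44. The groups overlapped, as control mouse 1 was above u40Hz mouse 10 (exact permutation p = 0.2). Its log2 fold change was 3.01, an 8.04-fold difference, with a standard error of 1.13 (limma, unadjusted p = 0.0274 and adjusted p = 0.704). It was 1.72 without u40Hz mouse 4, with a 95% confidence interval from -0.16 to 3.60, and 2.23 without control mouse 6. The 5 mice other than mouse 4 spanned 4.18, the widest span among the 9 genes. The mean of 7 slow fibre markers was also low in control mouse 6 (7.49) and high in control mouse 1 and u40Hz mice 10 and 11 (13.46, 12.23 and 12.63), with control mouse 8 and u40Hz mouse 4 at 9.35 and 9.50, and its part in the spread of *Dgat2* was not tested.

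*Dgat1* encodes the other diacylglycerol acyltransferase, an enzyme of a different protein family. The controls (mice 1, 6 and 8) had log2 signals of 4.86, 4.88 and 4.94, and the stimulated mice (4, 10 and 11) had 6.13, 4.62 and 4.59. U40Hz mouse 4 was the highest and u40Hz mice 10 and 11 were the lowest of the 6. In the 5 mice other than mouse 4 the signal was below the array medians, and whether it was above background was not tested. The fitted log2 fold change was 0.22 (SE 0.39, limma unadjusted p = 0.586 and adjusted p = 0.922). It was -0.29 without u40Hz mouse 4, with a 95% confidence interval from -0.74 to 0.17.

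*Mlxipl* encodes ChREBP. The log2 signal of control mice 1, 6 and 8 was 9.55, 9.65 and 9.66, and that of the stimulated mice 4, 10 and 11 was 10.01, 9.89 and 9.91. All 3 stimulated mice lay above all 3 control mice (exact permutation p = 0.1), with an SD of 0.06 in each group. The log2 fold change was 0.32, a 1.25-fold difference, with a standard error of 0.17 (limma, unadjusted p = 0.104 and adjusted p = 0.731). The standard error was wider than the spread of its own values, because limma draws the spread of each gene towards that of all probe sets. When single mice were left out, this difference ran from 0.28 to 0.34, the narrowest range among the 9 genes. U40Hz mouse 4 was 0.35 above the median of the other mice, number 4828 of the 22206 probe sets in this order of distance.

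Of the 9 genes, all 9 had a higher mean with stimulation (50.9% of all probe sets) and none a lower one (48.6%), and their median log2 fold change was 2.67, against 0.01 for all probe sets. None passed the adjusted threshold. *Acacb* and *Dgat2* had an unadjusted p under 0.05 with a higher mean, as 3.86% of all probe sets did. That count was 0 without control mouse 6 or without control mouse 8, 3 without u40Hz mouse 11 and 6 without u40Hz mouse 10. The shares of all probe sets in these fits were not counted, so these counts are not read as a trait of the members. The groups did not overlap, with the stimulated mice higher, for *Acaca*, *Acacb*, *Fasn* and *Mlxipl*, 4 of the 9, and for 6.4% of all probe sets. For none of the 9 were all stimulated mice below all controls, whereas 6.05% of probe sets were. In 7 of the 9 genes the 95% confidence interval held 0. The genes of this pathway were chosen with earlier results of these arrays known, so these counts are a description.

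**Figure D2:**
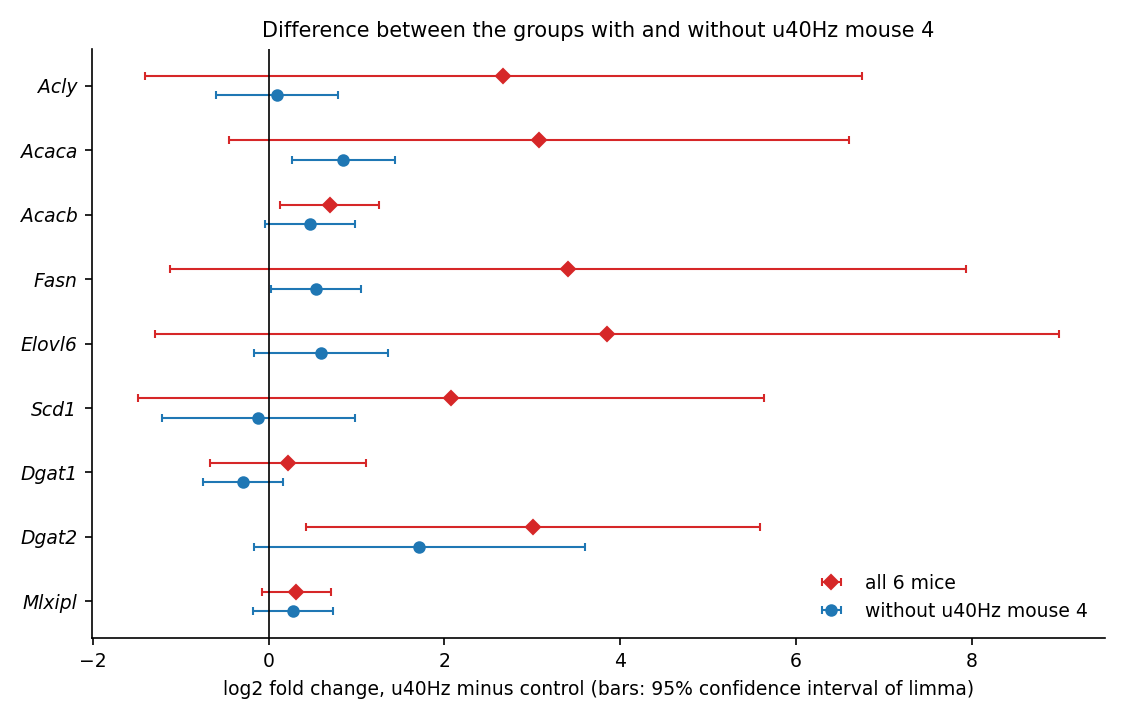
Log2 fold change (x axis, u40Hz minus control) of the 9 genes (y axis), with all 6 mice (red diamonds) and without u40Hz mouse 4 (blue points). Bars are 95% confidence intervals from limma; *Fasn* moved from 3.41 to 0.54, *Mlxipl* from 0.32 to 0.28, and *Scd1* and *Dgat1* crossed 0.

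Without u40Hz mouse 4, 7 of the 9 genes had a higher mean, where 50.8% of all probe sets did, and the median log2 fold change was 0.47, against 0.01 for all probe sets. *Scd1* and *Dgat1* were the 2 with a lower mean. *Acaca* and *Fasn* had an unadjusted p under 0.05 with a higher mean, as 3.33% of all probe sets did, and none of the 9 passed the adjusted threshold. U40Hz mice 10 and 11 lay above all control mice for 4 of the 9 genes (11.4% of all probe sets) and below all control mice for *Dgat1* (10.8%). U40Hz mouse 11 was above all control mice for 7 of the 9 genes (27.3% of all probe sets) and u40Hz mouse 10 for 4 (26.5%). Mouse 11 was above mouse 10 for 8 of the 9 (49.9%), *Dgat1* being the exception. Control mouse 6 was the lowest of the 6 mice for 5 of the 9 (17.7%). Of the 6 tendon markers, 4 were below every control mouse in all 3 stimulated mice (6.05% of all probe sets). Without u40Hz mouse 4, the log2 fold changes of these 4 were -1.92 for *Tnmd*, -3.11 for *Fmod*, -1.68 for *Comp* and -1.96 for *Thbs4*. For *Comp* and *Thbs4* the gap was small, with u40Hz mouse 4 at 6.08 and 10.44 and control mouse 6 at 6.09 and 10.51. *Scx* overlapped and *Mkx* went the other way, with log2 fold changes of -0.65 and 0.11 without u40Hz mouse 4. Without u40Hz mouse 4, all 7 slow fibre markers were also higher with stimulation, with a median log2 fold change of 2.38. All 5 endothelium markers were too, with a median of 0.495, where 50.8% of all probe sets were higher. No slow fibre marker was above all control mice in both u40Hz mice 10 and 11. None of these markers had an unadjusted p under 0.05 in limma. The part of tendon tissue, fibre type or endothelium in the values of the synthesis genes was not tested.

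**Figure D3:**
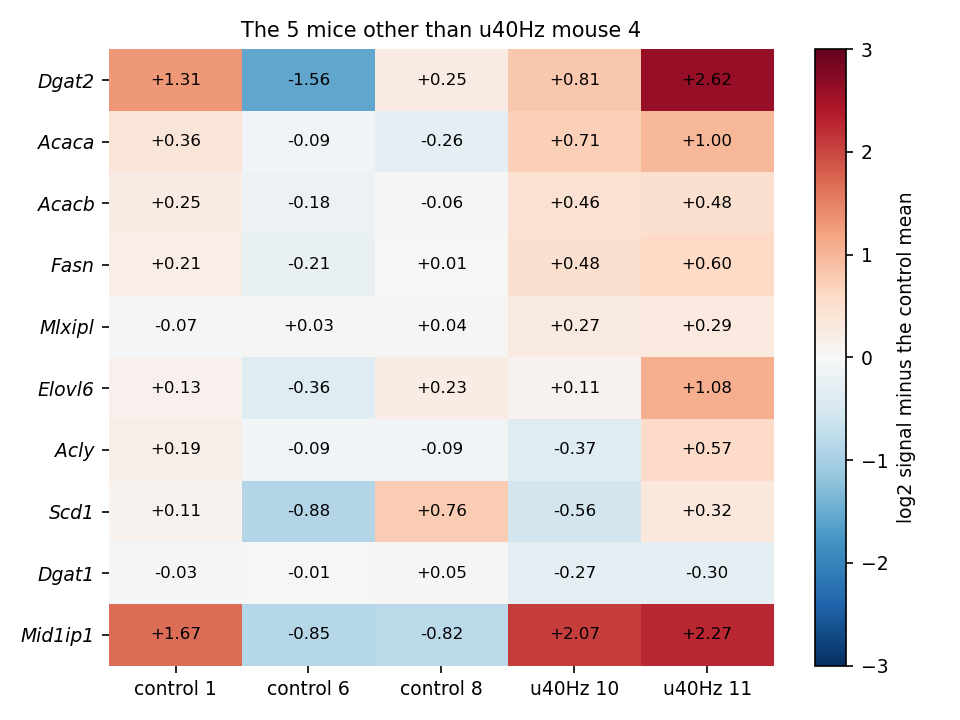
Log2 signal minus the mean of the control mice (colour and printed values) for the 9 genes and *Mid1ip1* (rows) in the 5 mice other than u40Hz mouse 4 (columns). *Acaca*, *Acacb*, *Fasn* and *Mlxipl* were positive in u40Hz mice 10 and 11 and above each control mouse, with *Fasn* at 0.48 and 0.60, while *Dgat2* ran from -1.56 in control mouse 6 to 2.62 in u40Hz mouse 11.

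U40Hz mouse 4 was the highest of the 6 mice for 9 of the 9 genes, where it was the highest for 21.2% of all probe sets. It was more than 1 above the median of the other mice for 7 of the 9, all but *Acacb* and *Mlxipl* (3.32% of all probe sets), more than 5 above it for 5 of the 9, and for 28 probe sets in all (0.126%). *Elovl6* was the second, *Fasn* the fourth, *Acly* number 8, *Acaca* number 14, *Scd1* number 19 and *Dgat2* number 32 of the 22206 probe sets in this order. *Ucp1* was the first, with a distance of 12.13. For *Ucp1* and *Elovl6* the other 5 mice lay below the array medians, where it was not tested whether a signal was above background, so their distances and places are less certain. The adipokine *Adipoq* was at 15.16 in u40Hz mouse 4 and at 6.32 to 9.66 in the others, and the lipid droplet proteins *Plin1* and *Cidec* were at 10.54 and 12.02. Of the 9 measured white adipocyte markers, 8 were more than 1 above the median of the other mice in u40Hz mouse 4, and the median distance of the 9 was 4.62. Of the 6 brown adipocyte markers, only *Ucp1* and *Cidea* were, and the deiodinase *Dio2* was at 5.29 against 5.00 to 6.02. *Cox8b* was at 14.03 in u40Hz mouse 4, below the 14.07 to 14.44 of the other mice. The markers of muscle fibre, slow fibre, tendon, macrophage, endothelium and Schwann cell held no gene more than 1 above. All 7 slow fibre markers were more than 1 below the median of the other mice in u40Hz mouse 4, by 1.35 to 3.82 (1.58% of all probe sets were more than 1 below), and their mean of 9.50 there was near the 9.35 of control mouse 8. The part of fat cells and of fibre type in these distances was not tested.

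Control mouse 8 had the second highest mean of the white adipocyte markers, at 7.86, where control mice 1 and 6 and u40Hz mice 10 and 11 were at 6.73, 6.23, 6.68 and 7.05. Its *Adipoq* was at 9.66, and its *Cidec* at 9.01 against 6.08 to 7.14 in these 4 mice. Its *Fabp4* at 14.90 and *Adig* at 6.79 lay inside the range of these 4 mice (13.51 to 15.37 and 6.48 to 7.58). The other measured white adipocyte markers were higher in control mouse 8 than in each of them. Among the controls, *Scd1* at 13.77, *Elovl6* at 4.37, *Dgat1* at 4.94 and *Mlxipl* at 9.66 were highest in this mouse. The margins of *Dgat1* and *Mlxipl* were small, with control mouse 6 at 4.88 and 9.65. The other synthesis genes were highest in control mouse 1. The share of all probe sets highest in control mouse 8 was not counted, and a link to the markers was not tested. The means of the white adipocyte markers in u40Hz mice 10 and 11 lay inside the range of the control mice.

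The wider pathway was described with 9 lists of 91 companion genes, of which 84 were measured. Of these, 55 were higher (50.9% of all probe sets) and 29 lower (48.6%) on average with stimulation, 9 reached an unadjusted p under 0.05 (7.01%), and no gene passed after adjustment. Without u40Hz mouse 4, 45 were higher (50.8%) and 39 lower (48.9%), and 6 reached an unadjusted p under 0.05 (6.36%). In u40Hz mouse 4, 22 of the 84 were more than 1 above the median of the other mice (3.32%).

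**Figure D4:**
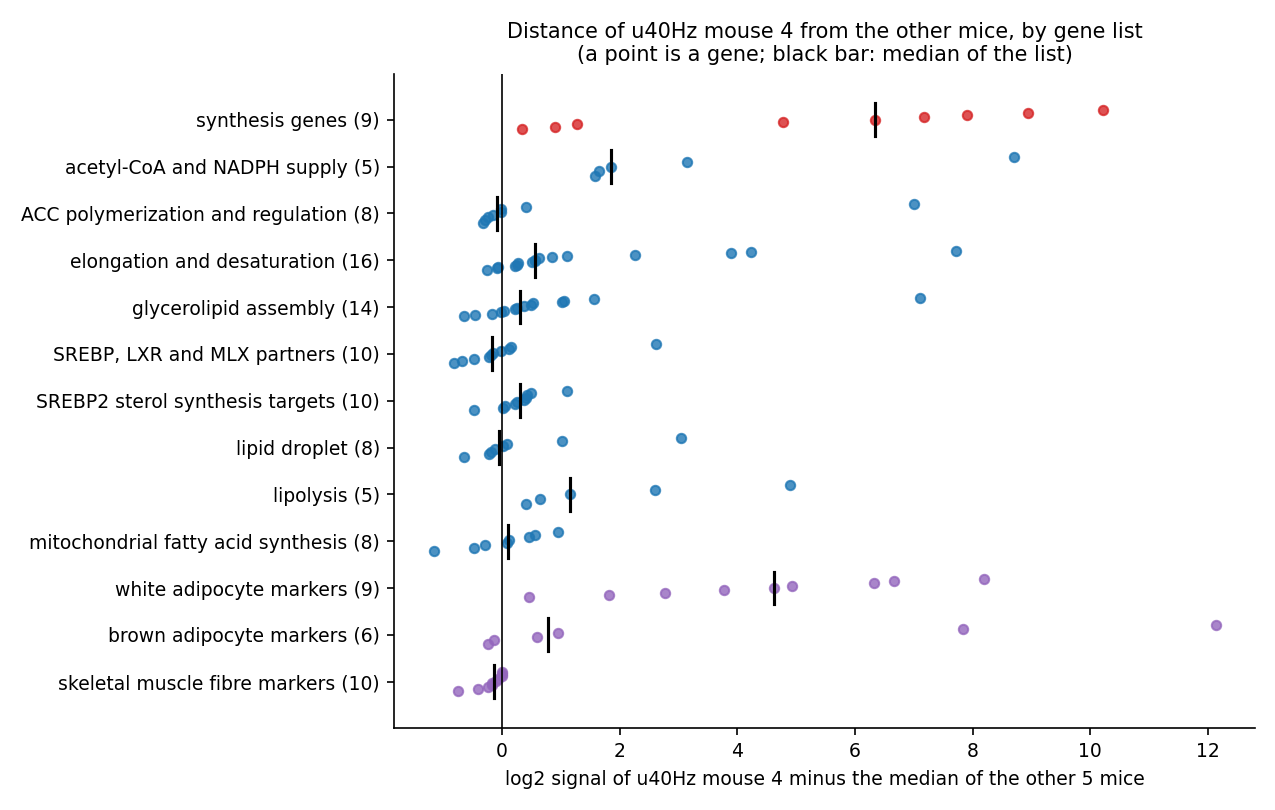
Log2 signal of u40Hz mouse 4 minus the median of the other 5 mice (x axis) for each gene (points) of the synthesis genes (red), 9 companion lists (blue) and 3 marker lists (purple); black bars are medians and the number of genes is in parentheses. The median was 6.34 for the synthesis genes, 4.62 for the white adipocyte markers and -0.17 for the SREBP, LXR and MLX partners.

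Genes that supply acetyl-CoA and NADPH were all higher in u40Hz mouse 4. Of the 5 measured, 5 were more than 1 above the median of the other mice (3.32% of all probe sets). *Slc25a1*, the mitochondrial citrate carrier that delivers the substrate of ATP citrate lyase, was at 15.05 in u40Hz mouse 4 and at 6.25 to 7.28 in the others, the fifth largest distance of all probe sets. The median log2 fold change of these 5 genes was 1.08, and 0.15 without this mouse. *Idh1*, which makes cytosolic NADPH, and *Acss2*, which makes acetyl-CoA from acetate, had log2 fold changes of 1.24 and 1.08 (limma, unadjusted p = 0.0248 and 0.0352). Without u40Hz mouse 4 these were 0.79 and 0.58. *Pgd* of the pentose phosphate pathway had a log2 fold change of 0.93, and of -0.15 without it.

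Among 8 genes that regulate acetyl-CoA carboxylase, the related cofactors *Mid1ip1* and *Thrsp* differed in pattern. *Mid1ip1*, whose protein makes the carboxylase form active polymers, had a log2 signal of 8.51, 5.99 and 6.02 in the controls (mice 1, 6 and 8) and of 8.36, 8.91 and 9.11 in the stimulated mice (4, 10 and 11). U40Hz mouse 4 was inside the range of the others, and control mouse 1 was above it. Its log2 fold change was 1.95 (SE 0.62, limma unadjusted p = 0.0125 and adjusted p = 0.695), and 2.17 without u40Hz mouse 4. *Thrsp*, known in liver and fat as a lipogenic cofactor, was at 16.56 in u40Hz mouse 4 and at 9.41 to 9.87 in the others. Its log2 fold change was 2.32, and 0.0050 without this mouse. *Prkab2*, a regulatory subunit of AMP-activated protein kinase, which inhibits the carboxylases, showed a log2 fold change of -0.58 with the groups apart by only 0.01 (limma, unadjusted p = 0.0355 and adjusted p = 0.711), and of -0.76 without u40Hz mouse 4.

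In the 16 measured genes of elongation and desaturation, 12 had a higher mean (50.9% of all probe sets), with a median log2 fold change of 0.22. Without u40Hz mouse 4, 8 had a higher mean (50.8% of all probe sets), with a median of 0.03. *Hacd2* and *Hsd17b12*, which carry out later steps of the elongation cycle, were at 12.50 and 11.44 in u40Hz mouse 4, with log2 fold changes of 1.64 and 1.40, and of 0.41 and -0.02 without this mouse. *Elovl5* and *Elovl2*, elongases of polyunsaturated fatty acids, had log2 fold changes of 1.08 and 0.43, and of 0.40 and 0.31 without it. *Elovl3*, an elongase of brown fat and skin, was at 11.28 in u40Hz mouse 4 and at 3.24 to 4.02 in the others. The elongases *Elovl1*, *Elovl4* and *Elovl7* in this mouse lay inside the range of the other 5. These 4 elongases, like *Scd3* and *Scd4*, were named after their values were seen.

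Of the 14 genes of glycerolipid assembly, 11 had a higher mean (50.9% of all probe sets). Their median log2 fold change was 0.13 (0.03 without u40Hz mouse 4). Of the 14, 4 were more than 1 above the median of the other mice in u40Hz mouse 4 (3.32% of all probe sets). *Agpat2*, the lysophosphatidic acid acyltransferase of fat, was at 14.68 in u40Hz mouse 4 and at 6.31 to 8.31 in the others, whereas *Agpat5* was at 9.27 against 9.26 to 10.18. Their log2 fold changes were 2.92 and -0.45, and 0.67 and -0.34 without it. For the related acyltransferase *Agpat3* the log2 fold change was 0.94 (limma, unadjusted p = 0.0189 and adjusted p = 0.695), and of 0.70 without u40Hz mouse 4. *Gpam*, the mitochondrial enzyme that starts glycerolipid synthesis, showed a log2 fold change of 0.49 with no overlap between the groups (limma, unadjusted p = 0.0592), and of 0.46 without u40Hz mouse 4.

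The partners of SREBP, LXR and ChREBP held 10 measured genes. In u40Hz mouse 4, 1 of them was more than 1 above the median of the other mice (3.32% of all probe sets). Of these genes 4 were higher (50.9% of all probe sets) and 6 lower (48.6%). Their median log2 fold change was -0.17, and -0.04 without u40Hz mouse 4. *Insig1*, which holds SREBP in the endoplasmic reticulum and is itself an SREBP target, was that gene, at 10.77 against 7.66 to 8.22, with a log2 fold change of 1.0 that was 0.12 without this mouse. *Usf1*, an E-box factor known to act on the *Fasn* promoter, showed a log2 fold change of -0.70 with no overlap between the groups (limma, unadjusted p = 0.0295 and adjusted p = 0.704), and of -0.79 without u40Hz mouse 4. *Nr1h3*, the receptor LXRα, and *Srebf2*, the sterol-responsive SREBP, had log2 fold changes of -0.41 and -0.24, and of -0.27 for each without it. Of 10 sterol synthesis genes driven by SREBP-2, 5 were higher (50.9% of all probe sets) and 5 lower (48.6%). Their median log2 fold change was 0.0050, and 0.02 without u40Hz mouse 4. *Fdft1*, squalene synthase, showed a log2 fold change of 0.77 with no overlap (limma, unadjusted p = 0.00837 and adjusted p = 0.695), and of 0.85 without u40Hz mouse 4. *Hmgcs1* was 1.11 above the median of the other mice in u40Hz mouse 4, with a log2 fold change of 0.46 that was 0.05 without it. *Fdps* and *Idi1* had log2 fold changes of -0.19 and 0.14, and of -0.24 and 0.03 without it.

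Storage and release of triglyceride were covered by 8 lipid droplet and 5 lipolysis genes. *Plin5*, a droplet protein of oxidative tissues, showed a log2 fold change of 0.81 (limma, unadjusted p = 0.0357), and *Plin3*, another droplet coat protein, and *Fitm2*, which takes part in droplet formation, of 0.73 and 0.49, with u40Hz mouse 4 within 0.18 of the median of the others for each. Without it these were 0.93, 0.83 and 0.57. The droplet coat protein gene *Plin2* was at 12.63 in u40Hz mouse 4 and at 9.48 to 9.88 in the others, with a log2 fold change of 0.89 that was -0.14 without this mouse. The medians of the lipid droplet and lipolysis genes were 0.42 and 1.08, and -0.0108 and 0.36 without it. The lipases *Lipe*, *Mgll* and *Pnpla2* had log2 fold changes of 1.95, 1.08 and 0.70, and of 0.36, 0.41 and 0.36 without u40Hz mouse 4. *G0s2*, an inhibitor of the lipase encoded by *Pnpla2*, differed by 1.19 on the log2 scale (limma, unadjusted p = 0.0487), with 7.70 in u40Hz mouse 10 and 4.91 to 5.95 in the others, and by 1.39 without u40Hz mouse 4. Of the 8 genes of the separate mitochondrial pathway of fatty acid synthesis, which makes the lipoate precursor, 6 were lower (48.6% of all probe sets). The pathway had a median log2 fold change of -0.17, and of -0.25 without u40Hz mouse 4. Its lipoyl synthase *Lias*, malonyl transferase *Mcat*, ketoacyl reductase subunit *Cbr4* and lipoyl transferase *Lipt2* had log2 fold changes of -0.42, -0.27, -0.41 and -0.21, and of -0.34, -0.24, -0.05 and -0.30 without it. No gene of this list was more than 1 above the median of the other mice in u40Hz mouse 4 (3.32% of all probe sets).

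The 6 genes outside all lists whose profile over the 6 mice was nearest to the mean profile of the 9 synthesis genes were *Cyp2e1*, *Adtrp*, *Acp5*, *Otop1*, *Pde3b* and *Trarg1*, with root mean square differences of 0.33, 0.33, 0.36, 0.38, 0.40 and 0.45 on the centred log2 scale over 6 arrays. *Cyp2e1*, a cytochrome P450 that oxidizes ethanol and fatty acids, was at 11.97 in u40Hz mouse 4 and at 6.55 to 6.93 in the others. *Pde3b*, the phosphodiesterase through which insulin restrains lipolysis, was at 11.81 in u40Hz mouse 4 and at 5.21 to 6.49 in the others. *Trarg1*, which takes part in the trafficking of the glucose transporter GLUT4 in fat cells, was at 11.18 against 5.87 to 7.22. The mean profile of the synthesis genes was 4.44 in u40Hz mouse 4 and between -1.45 and -0.33 in the other 5 mice, relative to the mean of all 6. All 6 genes were high in u40Hz mouse 4 alone, which follows from how they were picked and is no separate result.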

How the data were processed

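Triceps brachii RNA of 6 male mice was hybridized to Affymetrix Mouse Clariom S arrays, 1 per mouse. The methods and supplement captions of the study name this muscle, whereas its results text names the biceps brachii. The authors deposited log2 signals for 22206 probe sets, made, per the submitters' processing notes, with the Transcriptome Analysis Console. The summary method and genome build were not given in the sources used here. Values were used as deposited, with no filter. Gene symbols came from the platform annotation (19572 probe sets with 1 symbol, 2634 with none here), and older names were updated through the RefSeq table of GRCm38.p6. A gene with several probe sets (55 genes) was represented by its probe set of highest average signal. Of the listed genes 12 had no probe set under their symbol here and have no signal values.

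The groups were compared by limma 3.58.1 (lmFit, eBayes; R 4.3.3) on all probe sets, two-sided, with Benjamini-Hochberg adjustment over all of them. The exact permutation test (scipy 1.17.1) compared the means of 3 mice against 3. The members and lists were chosen with earlier results of these data known. Named genes were the members, up to 4 genes of each companion list with the smallest unadjusted p, and the 6 genes with the most similar profiles among probe sets with a range of at least 1. The fit was tested on simulated data. The number of arrays limits the precision. Alternatives were each mouse left out, other variance priors, array weights, quantile normalization, median centring, a filter on dim probe sets, averaging the probe sets of a gene, and group medians. No batch was named in the labels. No 2 arrays were near-identical, with at most 1.27% of values equal.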

Additional observations from a re-analysis of the deposited data

How the results depend on the processing

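Of 125 member values under 14 alternatives, 122 kept their direction and their side of the adjusted threshold, and the lowest adjusted p of a member was 0.574. The exceptions were *Scd1*, from -0.12 to 3.39 when each mouse was left out, and *Dgat1*, from -0.29 to 0.48, both below 0 without u40Hz mouse 4, and *Dgat1* again with group medians (-0.26). The filter on dim probe sets left out *Dgat1* and kept 8 members. Part of the agreement of the 122 values was fixed in advance. The other variance priors leave a log2 fold change unchanged, no member had several probe sets to average, and group medians have no adjusted p. A kept direction is not a kept size. Without u40Hz mouse 4, *Fasn* went from 3.41 to 0.54 and *Acly* from 2.67 to 0.10. With group medians the median of the 9 genes was 0.59 and 8 of 9 were higher. Leaving out each mouse, the median of the members ran from 0.47 to 4.11, the number with a higher mean from 7 to 9, and the number at an unadjusted p under 0.05 from 0 to 6, and that number was 1 with the robust prior of limma. Shares of all probe sets were counted only with all 6 mice and without u40Hz mouse 4, so most of these counts have none beside them. The sterol synthesis list's median ran from -0.03 to 0.10 when each mouse was left out and was -0.0050 with median centring, and the lipid droplet list's from -0.0108 to 0.61. The cause of these changes was not tested. No paired analysis was possible because the mouse numbers of the groups are not shared. With u40Hz mouse 4 left out, 2 mice stand against 3, and the fit then assumes that both groups vary alike. In the 5 mice other than mouse 4, *Dgat1*, *Elovl6*, *Elovl3*, *Ucp1*, *Cidea* and *Plin1* lay below the array medians. *Scd4*, *Elovl2*, *Elovl4* and *Elovl7* did so in all 6 mice. Whether these signals were above background was not tested. The interval of a difference that holds 0 does not show that the groups were alike.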
